A study of Mus musculus with 3 samples.

Results

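The T-cell receptor complex and its coreceptors were followed in the spleen of islet-transplanted mice by taking every non-control probe that the array names Cd3d, Cd3e, Cd3g, Cd247, Cd4, Cd8a, Cd8b1, Lck, Zap70 or Lat. These 10 genes had 14 probes, of 55679 probes with 34796 gene names on the array. Each of 6 genes had 1 probe, and each of 4 genes had 2 probes. The recipients were C57BL/6J mice per the labels (C57BL/6 in the study's methods) that, per the methods, were male and had been made diabetic with streptozotocin (STZ), a toxin of pancreatic beta cells. Per the treatment label all of them carried 25 islets in the spleen and 100 under the capsule of a kidney (SP25+KC100), from syngeneic donors per the methods, although the characteristics name the capsular graft for Sample 3 alone. Spleens were taken on day 0, directly after the transplantation (Sample 1), on day 2 (Sample 2), or on day 139 from recipients that had lost the graft-bearing kidney on day 100 (Sample 3). The methods give 1 range of ages for all mice of the study, but neither the age at each harvest nor the number of mice behind an array is given in the sources used here, and neither a spleen without islets nor one without STZ is among the arrays.

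The T-cell receptor recognizes peptides on MHC molecules and has no signaling part of its own. The CD3 gamma, delta and epsilon chains and the zeta chain, which Cd247 encodes, carry the signal through immunoreceptor tyrosine-based activation motifs (ITAMs). CD4 on helper T cells and CD8 on cytotoxic T cells bind MHC class II and class I, respectively, and bring the kinase LCK to the complex. LCK phosphorylates the ITAMs, ZAP70 docks on them, and ZAP70 phosphorylates the scaffold LAT. In the spleen, T cells lie mainly in the periarteriolar sheaths of the white pulp.

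Every array was a 1-colour Agilent mouse array with 60-base probes, and 3 arrays were hybridized, 1 for each day. There were therefore no replicates, no p-value could be computed, and array, RNA and condition cannot be told apart. Signals below are normalized processed signals on a linear scale in arbitrary units. The error given beside a log2 ratio is that which the scanner software assigned to the spots, and it holds nothing of the variation between mice. Between 50.4% (day 139) and 54.4% (day 0) of the probes were well above background, 32108 probes were well above background on at least 1 array, and no gene spot was saturated. All 14 member probes were well above background on all 3 arrays, as were all 11 genes of a T-cell marker list. Apart from members (Cd3d, Cd3e, Cd3g, Cd247, Lck, Zap70 and Lat), that list held only Cd2, Cd5, Cd28 and Thy1. In bulk spleen RNA, fewer T cells and less of an RNA per T cell cannot be told apart.

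What the probes read differs between the genes, and the following 5 probe sequences are shown because each has a reading frame without a stop codon and 3 of them carry a signaling motif. They are printed 5′ to 3′ as in the scanner files. For Cd3d and Cd247 the capitals mark the codons of the tyrosines and leucines of an ITAM, and for Lat the codons of the tyrosine and the asparagine of a GRB2-family docking site.
Cd3d: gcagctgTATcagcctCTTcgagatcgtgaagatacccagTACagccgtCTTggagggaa
Cd247 probe 1: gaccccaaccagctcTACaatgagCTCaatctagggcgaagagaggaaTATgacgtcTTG
Lat: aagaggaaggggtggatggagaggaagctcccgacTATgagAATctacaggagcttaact
Cd4 probe 2: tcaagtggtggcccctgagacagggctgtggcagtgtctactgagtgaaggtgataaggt
Cd8a probe 2: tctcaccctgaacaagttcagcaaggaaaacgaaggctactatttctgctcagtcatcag

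The ITAM was searched as tyrosine, any pair of residues, leucine or isoleucine, repeated after a spacer, in the reading frames without a stop codon on the printed strand. A frame without a stop codon is common, in 79.3% of 55600 distinct probe sequences. The ITAM was held by 51 of the 55600 (0.0917%). Tyrosine, any residue, asparagine was held by 1311 of them (2.36%). These matches describe the letters of the probes and are no measure of signaling. Cd247 probe 1, which the array describes as transcript variant eta, lay at chr1:167786567-167787585 (mm9, plus strand), a stretch of 1019 bases that is longer than the probe, so its placement is interrupted. Cd3d was likewise placed over 232 bases, at chr9:44794171-44794402 on the plus strand. The Lat probe lay at chr7:133507719-133507778 (minus strand), Cd4 probe 2 at chr6:124817706-124817765 (minus strand) and Cd8a probe 2 at chr6:71323885-71323944 (plus strand). No gene model of mm9 was used here, so exon and UTR positions of the probes were not assigned.

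Transcripts of the receptor complex were highest on day 139 for most members and lowest on day 0. With the probe of the highest mean signal taken for each gene, day 0 was the lowest array for 10 of 10 genes and day 139 the highest for 9 of 10, Lat being the exception. Over all 14 probes these counts were 12 and 12. For Cd247, the choice of probe rested on day 139, where probe 1 was at 97.8 and probe 2 at 46.5. On days 0 and 2, probe 2 was the brighter one (47.7 and 34.9, against 32.3 and 34.2). Read by probe 2, Cd247 was highest on day 0 and lowest on day 2, and its log2 ratio of day 139 over day 0 was -0.04. The shares of all detected genes and probes with these lowest and highest arrays were not computed, and many other genes had a similar pattern (below). The median ratio of day 139 over day 0 was 1.77 over the 10 genes, a log2 ratio of 0.83, and the single log2 ratios ran from 0.37 (Lat) to 1.60 (Cd247, a dim probe, at 0.79 with a normexp background correction). The median log2 ratio of all detected genes was 0.00.

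**Figure D1:**
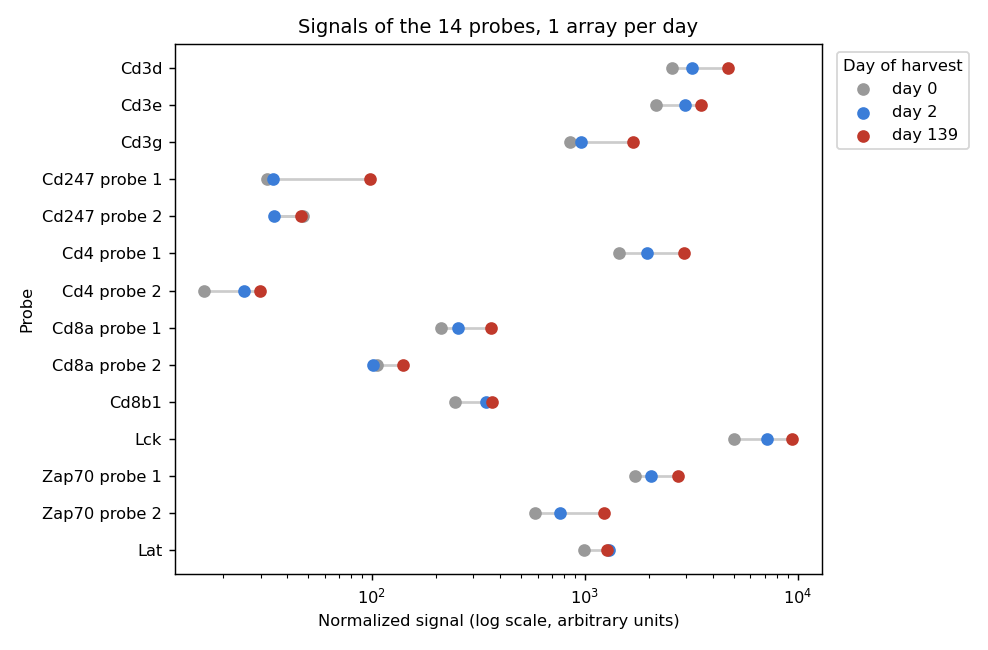
Normalized signal (log axis, arbitrary units) of each of the 14 member probes on the day 0, day 2 and day 139 arrays; each point is 1 array, and probe 1 of a gene is the one with the higher mean signal. Day 139 is the rightmost point for 12 of 14 probes, the exceptions being Lat and Cd247 probe 2. The share of all probes with day 139 highest was not computed.

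Of the CD3 chains, Cd3d, which encodes the delta chain, had signals of 2562 on day 0, 3192 on day 2 and 4718 on day 139. Its ratio of day 139 over day 0 was 1.84 (log2 0.88, scanner error 0.20). Cd3e (chr9:44806828-44806887, minus strand) encodes the epsilon chain, without which no complex reaches the cell surface. Its signals were 2156, 2955 and 3531, with a ratio of 1.64 between the last and the first array. Cd3g (chr9:44777868-44777927, minus strand) encodes the gamma chain and was at 854, 965 and 1693. All 3 genes thus had the same order of arrays, day 0 lowest and day 139 highest. They differed in where the larger step lay. For Cd3e it lay between day 0 and day 2 (log2 ratio 0.46, against 0.26 from day 2 to day 139). For Cd3g it lay between day 2 and day 139 (0.81, against 0.18 for day 2 over day 0, which was within the scanner error of 0.20). Cd3g, Cd3d and Cd3e are neighbours on chromosome 9 in the RefSeq annotation of GRCm38.p6. It has 0 protein-coding genes between Cd3g and Cd3d, and 0 between Cd3d and Cd3e.

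The zeta chain gave 2 different readings. Probe 1 of Cd247 had normalized signals of 32.3, 34.2 and 97.8, so that days 0 and 2 lay together and day 139 stood 3.03 times above day 0. Its log2 ratios were 1.60 ± 0.25 over day 0 and 1.51 ± 0.24 over day 2 (± scanner error), the largest of the 14 probes in both comparisons. With a normexp background correction they were 0.79 and 0.76, and that of day 139 over day 0 was then below Zap70 probe 2 at 1.13 and that over day 2 below Cd3g at 0.79. Before normalization, its processed signals were 34.7 ± 4.59, 35.6 ± 4.66 and 88.0 ± 9.44 (± scanner error). Probe 2 lay at chr1:167800324-167800383 (plus strand) and is described by the array as transcript variant kappa. It had signals of 47.7, 34.9 and 46.5, lowest on day 2 and highest on day 0, and its log2 ratio of day 139 over day 0 was -0.04 ± 0.26. The 2 probes therefore did not show 1 common pattern. With the median of both probes, the log2 ratio of Cd247 was 0.78 for day 139 over day 0 and not 1.60. Both probes were dim: the lowest signal of a probe well above background was 12.9 on the day 0 array and 18.2 on the day 139 array.

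The receptor chains themselves, alpha, beta, gamma and delta, were covered only in part. Of 17 gene names listed for them, 3 were on the array and 2 were detected, Tcrb-J and A430107P09Rik (55.7, 64.3 and 86.5). Tcra was on the array but was not detected. A wider search of the array's names, made after those names had been seen, gave 10 names of receptor chain segments, of which 5 were detected. Tcrb-J, a rearranged beta variable region, was at 20.1, 30.5 and 38.8, with day 0 lowest and day 139 highest. Trav14n-1, an alpha variable segment, was at 26.0, 42.8 and 48.4, in the same order. Both were dim, as the lowest signal of a probe well above background was 12.9 on the day 0 array and 18.2 on the day 139 array. Trav3n-3 (251, 288 and 263) and Trav9d-3 (81.8, 76.9 and 93.7) differed less between the arrays, and Tcrg-V1, of the gamma chain, was at 75.6, 87.2 and 66.7. The constant regions were not analysed here.

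Coreceptors were compared as ratios of ratios, so that no probe was set against another by its level. CD4, the helper coreceptor, had signals of 1455, 1949 and 2910 on its probe 1 (chr6:124814711-124814770, minus strand), a ratio of 2.00 for day 139 over day 0 (log2 1.00, scanner error 0.20). CD8 alpha, read by probe 1 of Cd8a (chr6:71328911-71328970, plus strand), was at 212, 253 and 362, a ratio of 1.71. CD8 beta, read by Cd8b1 (chr6:71287231-71287290, plus strand), was at 245, 345 and 367, a log2 ratio of 0.59. All 3 had day 0 lowest and day 139 highest. For Cd8b1, however, day 139 exceeded day 2 by a log2 ratio of 0.09, which was within the scanner error. Cd8a and Cd8b1 are adjacent on chromosome 6, while 420 protein-coding genes lie between Cd8b1 and Cd4.

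The cytotoxic coreceptor had a smaller log2 ratio than Cd4 in most readings, mostly within the error. From day 0 to day 139, the log2 ratio of Cd8a was 0.23 below that of Cd4, within the scanner error of 0.29, and that of Cd8b1 was 0.41 below it, beyond the error. From day 2 to day 139, the differences were -0.06 for Cd8a and -0.49 for Cd8b1. From day 0 to day 2 they were -0.17 and 0.07, both within the error. Over all 6 pairs of a cytotoxic and a Cd4 probe, the cytotoxic probe had the lower log2 ratio in 6 pairs for day 139 over day 0 (3 beyond the error), in 4 pairs for day 139 over day 2 (1 beyond) and in 5 pairs for day 2 over day 0 (2 beyond). These pairs share probes and arrays, so they are not independent readings. With the median over the probes of a gene, the difference between Cd8a and Cd4 for day 139 over day 2 was 0.08 in place of -0.06, so its sign was not settled.

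Probe 2 of Cd4 and probe 1 of Cd8a were printed 10 times on each array, which gives the spread of spots within an array. For Cd4 the spots ran from 11.9 to 19.6 on day 0 (median 15.6), from 20.5 to 32.9 on day 2 (median 24.3) and from 24.1 to 35.1 on day 139 (median 30.6). No day 0 spot reached the spots of either later array, while those of day 2 and day 139 overlapped. Well above background were 8, 9 and 10 of the 10 spots, respectively, so this is a dim reading, and its log2 ratio of day 139 over day 0 was 0.86 as processed here and 0.24 with normexp. For Cd8a the spots ran from 198 to 233, from 198 to 285 and from 335 to 380. Here days 0 and 2 overlapped and every day 139 spot used lay above all others. How often other probes printed 10 times separate in this way was not computed, so the separation sets neither gene apart. The SD of the spots on the log2 scale was 0.18 to 0.23 for Cd4 and 0.06 to 0.15 for Cd8a, and it holds only differences between spots of 1 array. The remaining Cd8a probe 2 was at 105, 101 and 140, lowest on day 2 and highest on day 139.

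**Figure D2:**
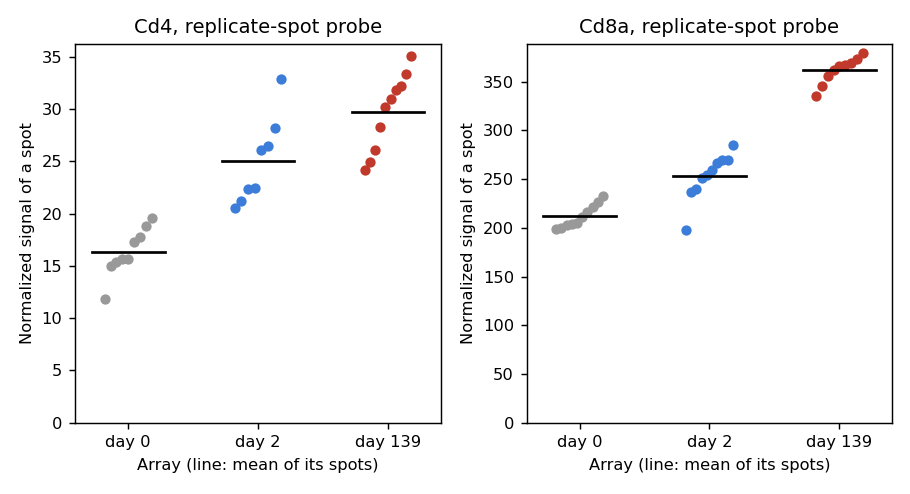
Normalized signal (arbitrary units, axis from 0) of each spot of the Cd4 and the Cd8a probe that were printed 10 times on each array, without spots marked as outliers by the scanner software; the line is the mean of the spots of 1 array. Cd4 spots of day 0 lie below 20.5, the lowest spot of day 2, and Cd8a spots of day 139 lie above 285, the highest spot of day 2. How often other probes printed 10 times separate so was not computed.

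The kinases had the same order of arrays as the CD3 chains. Lck, the kinase held by CD4 and CD8, was at 5018, 7196 and 9451 (chr4:129225614-129225673, minus strand). Its log2 ratios were 0.91 for day 139 over day 0 and 0.52 for day 2 over day 0. Zap70, the kinase that binds phosphorylated ITAMs, was at 1714, 2045 and 2746 on probe 1 (chr1:36839542-36839601, plus strand). It was at 584, 765 and 1228 on probe 2 (chr1:36839315-36839374, plus strand), a log2 ratio of 1.07 for day 139 over day 0, against 0.68 on probe 1. Both probes had day 0 lowest and day 139 highest. Lat, the scaffold phosphorylated by ZAP70, was at 989, 1301 and 1275. It was the gene with the smallest ratio of day 139 over day 0 (1.29), and days 2 and 139 did not differ beyond the scanner error (log2 ratio -0.03).

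By comparison, day 139 against day 0 gave the largest ratios. A higher signal on day 139 was found for 13 of 14 probes, all 13 beyond the scanner error, where 47.8% of all detected probes were higher. The share of all probes beyond their own scanner error was not computed, here or for the other comparisons. The upper quartile of all detected probes, a log2 ratio of 0.29, lay above the median scanner error of the 14 probes, 0.20. A ratio of at least 1.5 was reached by 11 of 14 probes, where 12.8% of all probes reached it. Cd8b1 lay just inside this limit (log2 ratio 0.59), and Cd8a probe 2, Lat and Cd247 probe 2 lay outside it. The study's methods also ask for a Z-score of at least 2. Here the Z-score was a probe's log2 ratio in units of the SD among the 1000 detected probes nearest to it in signal. None of the 14 probes met both conditions, where 2.52% of all probes did. The highest Z-scores were 1.96 for Zap70 probe 2 and 1.95 for Cd247 probe 1, and the remaining probes lay at or below 1.71 (Cd4 probe 1).

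Against day 2, the ratios of day 139 were smaller. Again 13 of 14 probes were higher on day 139, 11 beyond the scanner error, where 46.8% of all probes were higher. A ratio of 1.5 was reached by 3 of 14 probes, Cd247 probe 1 (2.86, or 1.69 with normexp), Cd3g and Zap70 probe 2, where 12.4% of all probes reached it. Both conditions were met by 0 probes, where 2.39% of all probes met them. The median log2 ratio was 0.47 over the 10 genes, and -0.03 over all detected genes.

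Day 2 over day 0 gave the smallest step, with a median log2 ratio of 0.36 over the 10 genes and 0.02 over all detected genes. The signal was higher on day 2 for 12 of 14 probes, where 51.6% of all probes were higher, and for 10 of these beyond the scanner error. Cd247 probe 2 was lower beyond it (-0.45 ± 0.26). A ratio of 1.5 was reached by 1 probe, Cd4 probe 2 (log2 ratio 0.62 ± 0.38), where 10.1% of all probes reached it, and both conditions by 0, where 1.91% of all probes met them. The 3 comparisons share their arrays, so they are not independent of each other.

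**Figure D3:**
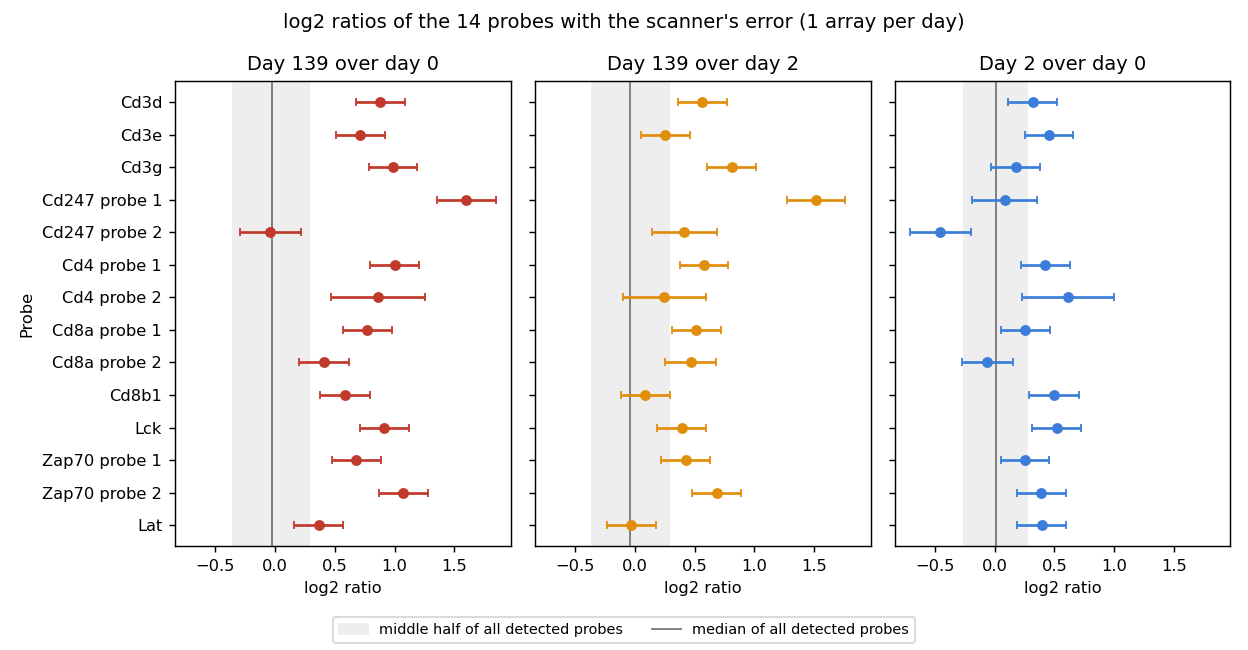
log2 ratio of each member probe in the 3 comparisons, with the scanner software's error as bars; the grey line and band are the median and quartiles of all 32108 detected probes. For day 139 over day 0, 13 of 14 points lie right of the upper quartile of 0.29, and Cd247 probe 2 lies at -0.04.

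**Figure D4:**
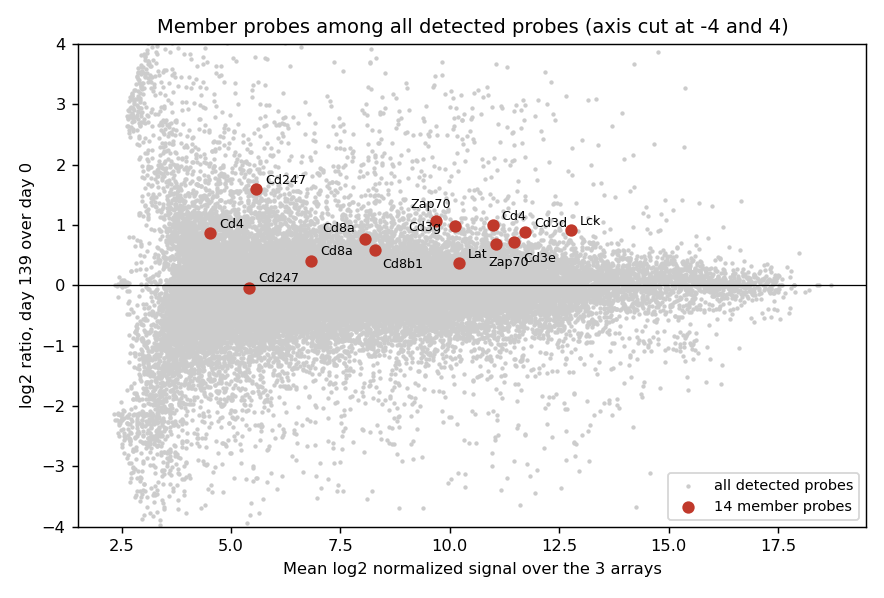
log2 ratio of day 139 over day 0 against mean log2 normalized signal over the 3 arrays for all detected probes (grey) and the 14 member probes (red); the vertical axis ends at -4 and 4 and leaves out probes beyond. The spread of the grey points is wider at low signal, where Cd247 probe 1 (log2 ratio 1.60, Z-score 1.95) lies.

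Genes that act with the receptor were taken as lists. Their medians are given relative to the median of all detected genes, while higher and lower mean a ratio above or below 1. Costimulatory and accessory receptors had 15 of 16 genes detected, and 14 of them were higher on day 139 than on day 0, where 49.6% of all detected genes were. Their median log2 ratio stood 0.81 above that of all genes, beside 0.83 for the members. Both conditions of the methods were met by Cd2, an adhesion receptor (log2 ratio 1.35), and Pdcd1, which encodes the inhibitory receptor PD-1 (1.82), where 3% of all genes met them. Against day 2, Pdcd1 (1.46), Slamf1 (1.29) and Lag3 (1.41) met them, where 2.8% of all genes did. Cd226 was the gene of the list with a lower signal on day 139 (-0.46 over day 0). Cd5, an inhibitory receptor of T cells, was at 1564, 2041 and 3222, and Cd28, the main costimulatory receptor, at 551, 659 and 950, both in the order of the members. Which cells of the spleen gave the signals of this list was not tested.

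Proximal signaling enzymes and adaptors had medians nearer to that of all genes than the members had, a difference that was not tested. All 19 enzymes were detected, 14 were higher on day 139 than on day 0, none met both conditions, and their median stood 0.35 above that of all genes. Tec, a tyrosine kinase, had the largest log2 ratio (1.02) and Ubash3b, a phosphatase that dampens receptor signals, the smallest (-0.23). For day 2 over day 0, 4 of the 19 enzymes were higher and 15 lower, where 52.8% of all genes were higher. Of 18 detected adaptors, 14 were higher on day 139 than on day 0 with a median 0.43 above that of all genes, and Lax1, an adaptor related to Lat, met both conditions (log2 ratio 1.24). Sla, which lowers receptor levels, met them as lower on day 2 than on day 0 (-0.88), where 2.88% of all genes did.

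Genes tied to the helper and the cytotoxic lineage were listed beside the coreceptors. Of 10 detected helper genes, 9 were higher on day 139 than on day 0, with a median 0.80 above that of all genes. Cxcr5, a chemokine receptor of follicular helper T cells that B cells also express (ratio 2.15), and Tox (ratio 2.83), a nuclear factor of T-cell development, met both conditions, and Maf was lower (log2 ratio -0.69). Of 12 cytotoxic genes, 7 were higher, with a median 0.26 above that of all genes. Gzmk, a granzyme, met both conditions (log2 ratio 2.28, from signals of 82.5, 143 and 401), while Fasl, the death ligand, had the smallest log2 ratio among the cytotoxic genes well above background on all arrays (-0.76). Natural killer cells express several of these cytotoxic genes as well. Foxp3, the factor of regulatory T cells, was at 93.7, 170 and 165, and its larger step lay between day 0 and day 2.

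Genes of resting T cells and genes induced through the receptor were also listed. Of 12 genes of resting T cells, 10 were higher on day 139 than on day 0, with a median 0.46 above that of all genes and no gene meeting both conditions. Lef1 had the largest log2 ratio (0.97) and Il7r the smallest (-0.11). Of 10 detected NFAT genes and activation targets, 7 were higher, with a median 0.28 above that of all genes. Irf4 met both conditions in both comparisons with day 139 (1.26 over day 0 and 1.39 over day 2), and Egr2 met them as lower on day 2 than on day 0 (-1.23).

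Markers of other spleen cells also differed between the arrays. All 12 B-cell markers were higher on day 139 than on day 0, and all 12 than on day 2, where 47.5% of all genes were, 5 of them meeting both conditions over day 0, and their median stood 1.06 above that of all genes, with Blk (1.94) at the top and Cr2 (0.23) at the bottom. Their summed signal was 62459, 63571 and 119338 on days 0, 2 and 139. Of 10 natural killer markers, which share Zap70, Lck, Lat and Cd247 with T cells, 8 were lower on day 139 than on day 0 (median 0.39 below that of all genes), and 10 of 10 were lower on day 2. Il18rap met both conditions as lower on day 2 than on day 0 (-1.90). Their summed signal was 16940, 12252 and 11230, most of it from Gzma, and 5760, 4699 and 4769 without that gene. Of 9 detected erythroid markers, 8 were lower on day 139 than on day 0, with Rhag (-1.14) meeting both conditions, where 2.45% of all genes met them as lower, and the summed signal was 104912, 128190 and 77109. The 8 megakaryocyte markers were all lower on day 139 (summed signal 27461, 30269 and 16781), and Pf4 met both conditions as lower over day 2 (-1.08), where 1.96% of all genes did. Most of that sum was Pf4, and without it the sum was 11763, 11078 and 7718. On day 2, 6 of the 8 were lower than on day 0, where 52.8% of all genes were higher. No detected marker of these cell types was at background on any array. The part of B, natural killer, erythroid and megakaryocyte cells in the ratios of the members was not tested.

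**Figure D5:**
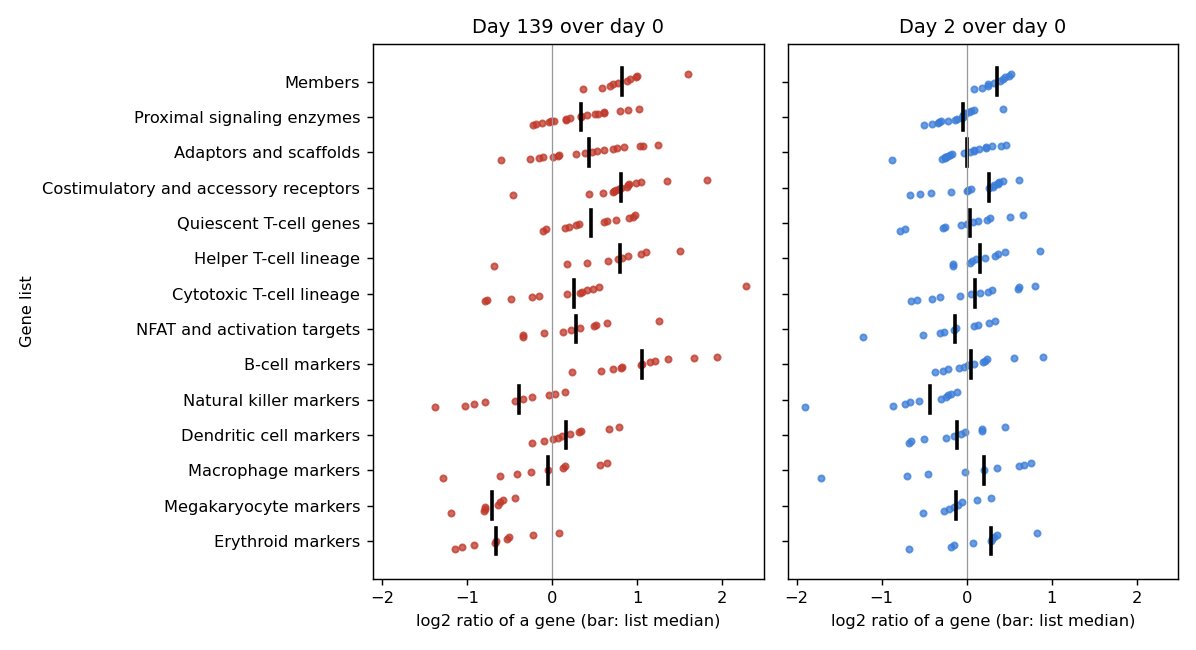
log2 ratio of each detected gene of the members and of 13 further lists (points) with the list median (black bar), for day 139 over day 0 (left) and day 2 over day 0 (right), 1 array per day. The member median lies at 0.83 on the left and 0.36 on the right, and that of the B-cell markers at 1.05 and 0.05.

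Cells that carry only some of the members were listed too. Of 10 dendritic cell markers, some of whose cells carry Cd8a or Cd4, 8 were higher on day 139 than on day 0, with a median 0.17 above that of all genes and a summed signal of 84328, 80010 and 74416. Most of that sum was Siglech, and without it the sum was 8048, 7387 and 9480. Macrophages can carry Cd4. Their 9 detected markers had a median 0.04 below that of all genes, 4 of them were higher on day 139, and Marco (-1.28) met both conditions as lower. Spic met them as lower on day 2 than on day 0 (-1.72) and as higher on day 139 than on day 2 (1.30). Only 4 of 11 gamma delta T-cell markers were detected, and 1 of them, Blk, is also a B-cell marker. Of 6 detected mast cell and basophil markers, Hdc was lower on day 139 than on day 0 (-3.27) and Mcpt8 higher (1.92), both meeting the conditions. Hdc also met them as lower on day 2 than on day 0 (-2.46). Cpa3 met them as higher on day 2 than on day 0 (1.66) and as lower on day 139 than on day 2 (-2.36). Their part in the coreceptor ratios was not tested.

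The genes whose pattern over the 3 arrays lay nearest to that of the members were sought among 19808 genes. Each gene was centred on its own mean log2 value, and the distance was taken to the median profile of the members, which was -0.39, -0.05 and 0.43 on days 0, 2 and 139. The nearest 5 that are not members were Vangl2, a planar polarity gene (distance 0.006), Mgat5b, a glycosyltransferase (0.018), NAP063053-1, described by the array as unknown (0.018), Gimap3 (0.018), a GTPase of lymphocytes, and Cd6 (0.019), an accessory receptor of T cells. Of the members, Cd8a lay nearest at 0.06, with 42 other genes nearer, and Cd247 farthest at 0.76, with 12677 other genes nearer. With 3 arrays such a pattern was shared by many genes.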

How the data were processed

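Scanner files of the arrays were deposited, with intensity on a linear scale per spot, background-subtracted by Feature Extraction (10.7.1.1 per the file headers, 9.5.1.1 per the labels). They also deposited 1 table of normalized intensity values, used as an alternative. Its values differed from those computed here by at most 0.10 (log2) for a member. The labels and the methods name different RNA and labeling kits.

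Control spots and spots with outlier flags were left out, spots of a probe averaged, and 55679 probes quantile normalized over the 3 arrays, with a floor of 1, then log2. Detected meant well above background on at least 1 array. A gene took its detected probe of highest mean signal. Calls were a ratio of 1.5 or more with a Z-score of 2 or more, and a ratio of 0.66 or less with a Z-score of -2 or less. The number of arrays limits the precision. The alternatives were normexp with an offset of 50 (limma 3.58.1, R 4.3.3), 8 spike-in controls or the 75th percentile as the scale, the deposited table, outlier spots kept, a higher floor, other detection, Z-score and ratio rules, and the median over probes. Python 3.11.15, numpy 2.4.6 and pandas 2.3.3 were used.

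All 10 members were found in RefSeq names (GRCm38.p6), used for names and neighbours. Named were all members, the 5 nearest patterns, and genes of the lists. From the lists these were genes meeting both conditions or with the largest or smallest log2 ratio of day 139 over day 0. Not every gene meeting both conditions was described: Gata1, Cd79a, Cd79b, Ms4a1, Cd22, Cd72 and Fcer2a also met them in at least 1 comparison. A few other genes were named after their values were seen. Members and lists, written from general knowledge, were chosen with earlier results of these data known. One gene of the lists is not reported here.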

Additional observations from a re-analysis of the deposited data

How the results depend on the processing

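No paired analysis was possible because each day had 1 array. With 1 array a day there is no check by replicates, and the scanner error covers reading error only. Scaling to the spike-in controls moved the median of all probes from -0.02 to 0.36 for day 139 over day 0 and from -0.04 to 0.40 for day 139 over day 2, and the member median to 1.22 and 0.91. Relative to all genes the member median stayed positive in every alternative run, from 0.74 to 0.85, from 0.46 to 0.51 and, for day 2 over day 0, from 0.33 to 0.36. The number of member probes called higher for day 139 over day 0, 0 as reported, was 1 with scaling to the 75th percentile (Zap70 probe 2), 1 with normexp (Zap70 probe 2), 1 with detection on all arrays (Cd247 probe 1), 6 with spike-in scaling, 7 with a scaled median absolute deviation in the Z-score and 11 by the ratio alone, while the share of all probes called was 2.52% as reported and 2.44%, 2.58%, 2.83%, 4.76%, 5.29% and 12.8% under these settings in turn. For day 139 over day 2 it was 1 with a window of 250 probes, 1 with detection on all arrays and 1 with spike-in scaling (Cd247 probe 1 each time), 2 with the median absolute deviation (Cd247 probe 1 and Cd3g) and 3 by the ratio alone, with 2.45%, 2.63%, 5.09%, 4.62% and 12.4% of all probes called. For day 2 over day 0 it was 1 by the ratio alone (Cd4 probe 2), with 10.1% of all probes called. The cause of these shifts was not tested. Among the lists, medians relative to all genes moved with the median over probes for adaptors (-0.24, day 2 over day 0) and macrophage markers (-0.27 for day 139 and -0.036 for day 2, over day 0). Without a detection filter they moved for gamma delta T-cell markers (0.15, day 139 over day 0), mast cell and basophil markers (-0.063 for day 139 and -0.077 for day 2, over day 0) and receptor chain names (-0.0087, day 139 over day 2). Gamma delta T-cell markers stood at 0.88 with detection on all arrays, and mast cell and basophil markers at -0.23 with normexp, both for day 139 over day 0. Among the 10 genes and the coreceptor differences, a sign changed only where the value lay within its scanner error, for Cd247 and for Cd8b1 minus Cd4 (day 2 over day 0) and for Lat and for Cd8a minus Cd4 (day 139 over day 2).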
